A study of Mus musculus with 15 samples.

Results

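The genes described here are the mucosal pentraxins Mptx1 and Mptx2, intelectin 1 (Itln1) and resistin-like molecule beta (Retnlb, the protein Relm-beta). They are 4 of the 22133 genes with a tested probe in mouse colon mucosa, and were measured by 5 of the 56605 probes that are not array controls. The members were chosen by the gene name in the array files, which gave 1 probe each for Mptx1, Mptx2 and Retnlb and 2 probes for Itln1. They were picked as a set with their differences in these mice already known. Their values in the comparisons between the groups are therefore a description, and p-values printed for them are no independent test.

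The mice were female Balb/cJ animals, 8 weeks old when colitis was induced, with 5 mice in each of 3 groups and 1 array per mouse. The water group drank water. The DSS vehicle group drank 4% dextran sodium sulfate (DSS), which damages the epithelial lining of the colon, in 3 cycles of 4 days with washout periods of 3 days on regular water, and was given the vehicle of the drug. The filgotinib group had the same DSS cycles and 30 mg/kg of filgotinib, an inhibitor that prefers the kinase JAK1, once a day by gavage. The compound field of the water group's labels reads vehicle control, while the design text names drinking water alone, so whether those mice were gavaged is not settled. There was no group given filgotinib without DSS. RNA came from mucosa scraped off the most distal 30 mm of the descending colon, a mixture of all cell types of the mucosa, so that fewer cells of a type and less RNA per cell cannot be told apart.

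All 4 genes encode secreted proteins that meet microbes in the gut lumen. Pentraxins are calcium-dependent pattern-recognition proteins that assemble into discs, of which C-reactive protein and serum amyloid P are the best known, and mucosal pentraxins are their intestinal relatives. Mptx2 is known as a gene of mouse small intestinal Paneth cells, the antimicrobial cells at the crypt base. Intelectin 1 is a lectin of goblet and Paneth cells that binds sugars found on microbes and not on mammalian cells, and Relm-beta is a goblet cell protein with antibacterial activity whose gene responds to microbes and to type 2 cytokines.

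The probe sequences show what was read for each gene, and are given 5′ to 3′ in lower case. The Mptx1 probe lies at chr1:176262532-176262591 on the plus strand and the Mptx2 probe at chr1:175204601-175204660 on the minus strand of mm9, per the array files, which give no position for the second Itln1 probe.
Mptx1: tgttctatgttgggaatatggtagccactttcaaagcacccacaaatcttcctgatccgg
Mptx2: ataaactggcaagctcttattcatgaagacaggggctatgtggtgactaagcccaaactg
Itln1 second probe: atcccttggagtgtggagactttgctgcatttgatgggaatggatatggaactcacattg
No transcript sequences were used here, so whether either pentraxin probe also binds the other gene's transcript was not tested.

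The brighter Itln1 probe lies at chr1:173448282-173448341 on the minus strand, and the Retnlb probe at chr16:48818874-48818933 on the plus strand of mm9. The array also carries a probe for the intelectin paralog Itlnb, and a stretch of 30 bases within the brighter Itln1 probe matches it at 27 positions. The match runs on without a difference past this stretch to the end of the Itln1 probe. This stretch is shown because binding of Itlnb transcripts to the Itln1 probe was not tested, with the 3 differing bases in capitals.
Itln1: ctgacTtagtaactGGaatgctaatgagca
Itlnb: ctgacAtagtaactTCaatgctaatgagca
The second Itln1 probe shares a run of 24 bases with a probe named LOC102642530, against 17 for the brighter Itln1 probe and the Itlnb probe, and which transcript it reads was not settled. The Itlnb probe was well above background on 1 water array, 2 DSS vehicle arrays and 0 filgotinib arrays, so Itlnb was not tested.

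The starts of the 2 pentraxin genes are shown because their signals moved together from mouse to mouse. RefSeq promoter sequences of GRCm38.p6 were given for 3 of the 4 genes, with none used for Retnlb. Over the aligned parts upstream of the Mptx1 and Mptx2 starts, 197 of 236 alignment columns were identical (83.5%), with 31 substitutions and 8 gap columns. Capitals mark the bases that are not identical in the alignment. The Mptx1 stretch runs from -235 to -1 relative to the annotated start, at chr1:174330283-174330517 on the plus strand, and the Mptx2 stretch from -250 to -22, at chr1:173277778-173278006 on the minus strand.
Mptx1: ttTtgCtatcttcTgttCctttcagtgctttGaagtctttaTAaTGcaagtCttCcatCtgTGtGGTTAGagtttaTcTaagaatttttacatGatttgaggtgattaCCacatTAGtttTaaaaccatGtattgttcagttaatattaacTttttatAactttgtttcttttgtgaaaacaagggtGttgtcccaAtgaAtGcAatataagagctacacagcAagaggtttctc
Mptx2: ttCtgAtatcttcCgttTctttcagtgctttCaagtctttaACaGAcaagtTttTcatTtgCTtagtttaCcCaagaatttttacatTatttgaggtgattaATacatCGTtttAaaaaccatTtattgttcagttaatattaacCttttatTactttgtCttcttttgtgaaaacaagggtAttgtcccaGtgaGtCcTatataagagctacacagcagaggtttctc
The letters TATAAG, searched on both strands, stand at -29 in Mptx1 and at -49 in Mptx2, within the identical run near the end of both stretches, and occur in 6.65% of 32851 mouse windows of the same table, each the 250 bases before a start. The STAT-type motifs TTCNNNGAA (7.02% of windows) and TTCNNNNGAA (5.85%) were not found on either strand in the windows of Mptx1, Mptx2 or Itln1.

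Across the series, arrays had 50.2% to 62.1% of their probes well above background, no spot was saturated, and the 75th percentile of the processed signal was 684 to 813 in water, 570 to 667 in DSS vehicle and 552 to 663 in filgotinib mice. All 12 colon epithelium markers and all 20 goblet cell genes listed were well above background on all 15 arrays. Of 11 small intestine markers, 4 (Fabp6, Apoc3, Slc5a1 and Rbp2) were so on all 15 arrays and 3 (Lct, Sis and Apoa4) on none. Of 16 Paneth and deep crypt genes with a probe, 9 were above background on all 15 arrays, the defensins Defa3 and Defa26 on none, and Defa24 on 2 water and 2 DSS vehicle arrays. Of the 6 slides, slide 2 held water mice 3 and 5 with DSS vehicle mouse 2. Slide 3 held DSS vehicle mice 1, 4 and 5 with filgotinib mice 1 and 2. Filgotinib mouse 3 was alone on slide 5 and scan day 4, and DSS vehicle mouse 3 alone on slide 4 and scan day 3. Slide 6 held only filgotinib mice 4 and 5, and no slide held both water and filgotinib arrays. Values below are normalized log2 signals, that is log2 of the processed signal minus the array's 75th percentile, so that 0 is the level of that percentile. Values of different probes cannot be compared as levels, and precision is limited by how many arrays there are.

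Mptx1, the first mucosal pentraxin, was high in most DSS vehicle mice and lowest in filgotinib mice. Its normalized log2 signal in water mice 1 to 5 was 0.87, 0.54, 0.59, 0.30 and -0.13 (mean 0.43 ± 0.38 SD, n = 5). In DSS vehicle mice 1 to 5 it was 1.83, 1.23, 0.01, 2.95 and 2.33 (mean 1.67 ± 1.13 SD), with 4 of 5 above the highest water mouse and mouse 3 within the water range. In filgotinib mice 1 to 5 it was -0.19, -0.03, -2.84, -0.74 and -3.34 (mean -1.43 ± 1.55 SD), all below every DSS vehicle mouse and 4 of 5 below the lowest water mouse. The filgotinib mice spread over 9.91-fold and the DSS vehicle mice over 7.69-fold, against 2.01-fold among water mice.

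Mptx2, the Paneth cell pentraxin, followed the same order of mice. Its log2 signal was 0.66, 0.27, 0.31, -0.05 and -0.36 in water mice 1 to 5 (mean 0.17 ± 0.39 SD). It was 1.61, 1.02, -0.16, 2.67 and 2.03 in DSS vehicle mice (mean 1.44 ± 1.08 SD), where mouse 3 again lay within the water range. In filgotinib mice it was -0.47, -0.23, -2.83, -0.94 and -3.31 (mean -1.56 ± 1.41 SD), with no overlap with DSS vehicle mice and 4 of 5 below the lowest water mouse. In both genes filgotinib mice 3 and 5 were far below the other three.

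Itln1, the microbe-binding lectin, separated DSS vehicle mice from both other groups. The log2 signal of its brighter probe was -1.28, -2.50, -0.66, -1.52 and -2.03 in water mice 1 to 5 (mean -1.60 ± 0.70 SD). It was 1.68, 1.25, 0.01, 0.79 and 0.58 in DSS vehicle mice (mean 0.86 ± 0.64 SD), each above every water mouse. It was -0.92, -1.85, -2.02, -1.47 and -2.51 in filgotinib mice (mean -1.76 ± 0.60 SD), with 4 of 5 within the water range, mouse 5 at its lower edge and all below every DSS vehicle mouse. The second, dimmer probe moved the same way over a smaller range, from -3.69 to -3.40 in water (mean -3.52 ± 0.12 SD), -3.29 to -2.20 in DSS vehicle (mean -2.74 ± 0.40 SD) and -4.11 to -3.12 in filgotinib mice (mean -3.70 ± 0.39 SD). That probe was well above background on 3 of 5 filgotinib arrays, while the other 4 member probes were so on all 15 arrays.

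Retnlb, the goblet cell antibacterial protein, was uniform in DSS vehicle mice and scattered in water mice. Its log2 signal was 0.35, -1.53, 0.90, 0.23 and -0.73 in water mice 1 to 5 (mean -0.16 ± 0.97 SD), a 5.40-fold range. It was 1.66, 1.95, 1.82, 1.21 and 2.27 in DSS vehicle mice (mean 1.78 ± 0.39 SD), all above the water mice, and -0.05, -0.85, -0.45, 0.53 and -0.73 in filgotinib mice (mean -0.31 ± 0.56 SD), all within the water range and below the DSS vehicle mice. DSS vehicle mouse 3, the lowest of its group for both pentraxins and Itln1, was not so for Retnlb.

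**Figure D1:**
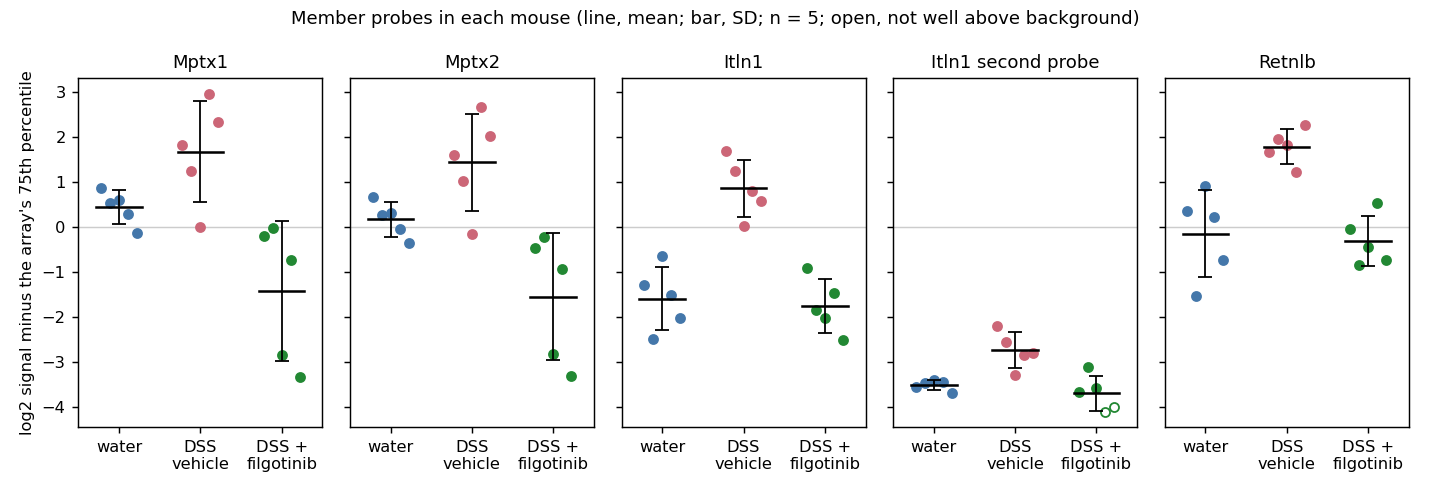
Normalized log2 signal (log2 of the processed signal minus the array's 75th percentile) of the 5 member probes in each of 15 mice; lines are group means, bars SD (n = 5), and open points are arrays where the probe was not well above background. The filgotinib mice lie below all DSS vehicle mice for Mptx1, Mptx2, the brighter Itln1 probe and Retnlb, and filgotinib mice 3 and 5 have the lowest pentraxin values, at -2.84 and -3.34 for Mptx1.

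The comparison of DSS vehicle with water mice asks what the colitis model changed. The brighter Itln1 probe was higher by 2.46 ± 0.38 log2 (SE; 5.49-fold), Retnlb by 1.94 ± 0.40 (3.84-fold) and the second Itln1 probe by 0.78 ± 0.20 (1.71-fold), and for these 3 probes the groups did not overlap. Mptx1 was higher by 1.24 ± 0.65 log2 (2.36-fold) and Mptx2 by 1.27 ± 0.61 (2.41-fold), with overlapping groups. Of the 5 probes, 3 were called higher (limma, adjusted p under 0.05 over 33466 probes), beside 8.72% of all probes tested, and 3 had no overlap in that direction, beside 8.3%. Nothing is read from these counts, since the choice of members used this comparison. On slide 2, which holds 1 DSS vehicle and 2 water mice, the log2 differences were 1.00 for Mptx1, 1.04 for Mptx2, 2.60 and 0.99 for the Itln1 probes and 1.86 for Retnlb.

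The comparison of filgotinib with DSS vehicle mice asks what the drug changed under DSS. The log2 difference was -3.10 ± 0.65 (SE; 8.58-fold lower) for Mptx1, -2.99 ± 0.61 (7.95-fold lower) for Mptx2, -2.62 ± 0.38 (6.13-fold lower) for the brighter Itln1 probe and -2.09 ± 0.40 (4.27-fold lower) for Retnlb, and none of these 4 overlapped between the groups. That of the second Itln1 probe was -0.96 ± 0.20 (1.95-fold lower), with 4 of 5 filgotinib mice below the lowest DSS vehicle mouse. All 5 probes were called lower, beside 4.28% of all probes, and 4 of 5 had no overlap in that direction, beside 3.11%, counts that again only describe the choice. On slide 3, with 2 filgotinib and 3 DSS vehicle mice, the log2 differences were -2.48 for Mptx1, -2.46 for Mptx2, -2.40 and -0.78 for the Itln1 probes and -2.17 for Retnlb. With the slide as a block, adjusted p-values (limma) over the 5 probes were 0.199 to 0.671 for DSS vehicle against water and 0.0643 to 0.11 for filgotinib against DSS vehicle, so that 0 of 5 were called in either.

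The comparison of filgotinib-treated DSS mice with water mice is not independent of the choice of these genes. Its log2 difference is the sum of those in the 2 comparisons above, with which it shares arrays. The p-values below are therefore a description. The log2 difference of Mptx1 from water was -1.86 ± 0.65 (SE; 3.64-fold lower; 95% interval -3.27 to -0.46), with 4 of 5 filgotinib mice below the lowest water mouse and an exact two-sided permutation p = 0.0159, where 0.00794 is the smallest that 5 against 5 mice allow. That of Mptx2 was -1.72 ± 0.61 (3.31-fold lower; 95% interval -3.03 to -0.42; exact permutation p = 0.0159), likewise in 4 of 5 mice. After adjustment over all 33466 probes neither passed, with limma's adjusted p = 0.0862 for Mptx1 and 0.0878 for Mptx2, and leaving out 1 mouse at a time gave adjusted p of 0.0571 to 0.188 and 0.0571 to 0.193. The brighter Itln1 probe differed from water by -0.16 ± 0.38 log2 (95% interval -0.97 to 0.65; adjusted p = 0.832 by limma, exact permutation p = 0.698) and Retnlb by -0.15 ± 0.40 (95% interval -1.01 to 0.70; adjusted p = 0.845 by limma, exact permutation p = 0.77). The second Itln1 probe differed by -0.19 ± 0.20 (adjusted p = 0.584 by limma, exact permutation p = 0.325). Thus 0 of 5 probes were called by limma, beside 8.61% of all probes in either direction. No slide held both groups, so this comparison has no value within a slide. With the slide as a block the log2 differences were -1.48 for Mptx1 and -1.41 for Mptx2 (limma, adjusted p = 0.716 and 0.712). That fit links these groups only through slides shared with DSS vehicle mice.

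Whether the pentraxins stood further from water than the other members was asked after these values had been seen. The log2 difference between 2 genes was taken in each mouse and compared between the filgotinib and water groups, which are different mice. Over the 6 gene pairs, the change of Mptx1 minus that of Itln1 was -1.71 log2 and the change of Mptx2 minus that of Itln1 was -1.57 (both exact permutation p = 0.0238, 0.0714 adjusted over the 6 pairs). The same differences against Retnlb were -1.71 for Mptx1 (exact permutation p = 0.0873, adjusted 0.114) and -1.57 for Mptx2 (exact permutation p = 0.0952, adjusted 0.114). None passed after adjustment, and since the question came from the same values, these p-values only describe them. The pairs with Mptx1 and those with Mptx2 are not separate either, as these 2 probes moved together from mouse to mouse. Itln1 and Retnlb differed from each other by -0.00 (exact permutation p = 0.984), and Mptx1 and Mptx2 by -0.14 (exact permutation p = 0.0635, adjusted 0.114).

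**Figure D2:**
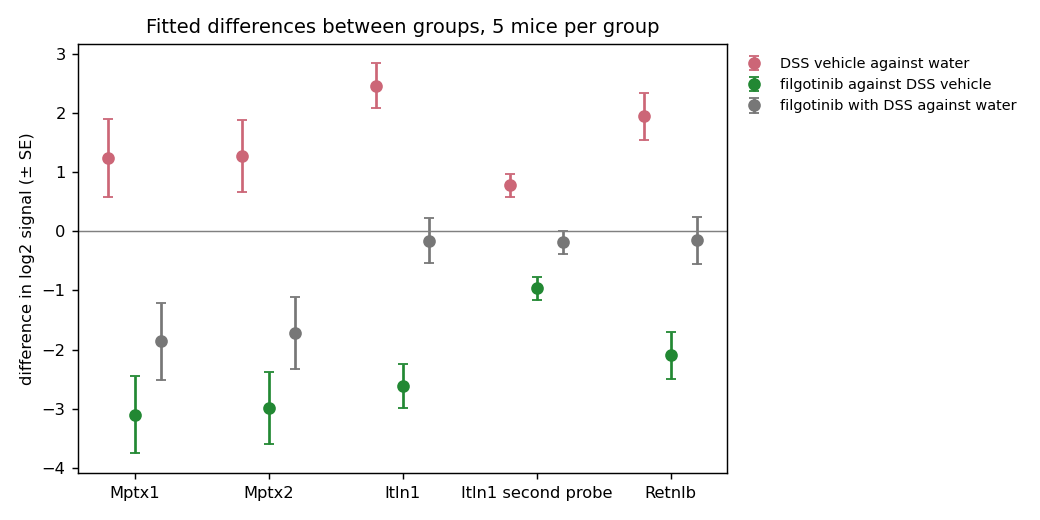
Fitted differences in log2 signal between groups for the 5 member probes, with SE, from 1 limma fit over 15 arrays. Mptx1 and Mptx2 lie below 0 in filgotinib-treated DSS mice against water (-1.86 and -1.72), while the brighter Itln1 probe and Retnlb lie near 0 (-0.16 and -0.15).

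The members also varied among the mice of each group, which is described here by deviations from the group means over all 15 arrays. These points share the array, its scaling and the slide, and the correlations are a description. The deviations of Mptx1 and Mptx2 were nearly the same in every mouse (Pearson r = 0.999, Spearman rho = 1.0, and r = 0.998 without the 2 mice farthest from the median), and their log2 difference varied over the 15 arrays with an SD of 0.10. Itln1 and Retnlb deviated together less closely (r = 0.632, rho = 0.621, r = 0.53 without 2 mice), and Mptx1 and Itln1 less still (r = 0.507, rho = 0.439, r = 0.217 without 2 mice, so that the relation rests on those mice). Mptx1 and Retnlb had r = 0.12 (rho = 0.179, r = 0.0406 without 2 mice). The 2 Itln1 probes, which are labelled as the same gene, deviated with r = 0.473 (rho = 0.479, r = 0.519 without 2 mice), below the value between the probes of Mptx1 and Mptx2. Since binding of either pentraxin probe to the other gene's transcript was not tested, the value for that pair may not be one of 2 separate transcripts.

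**Figure D3:**
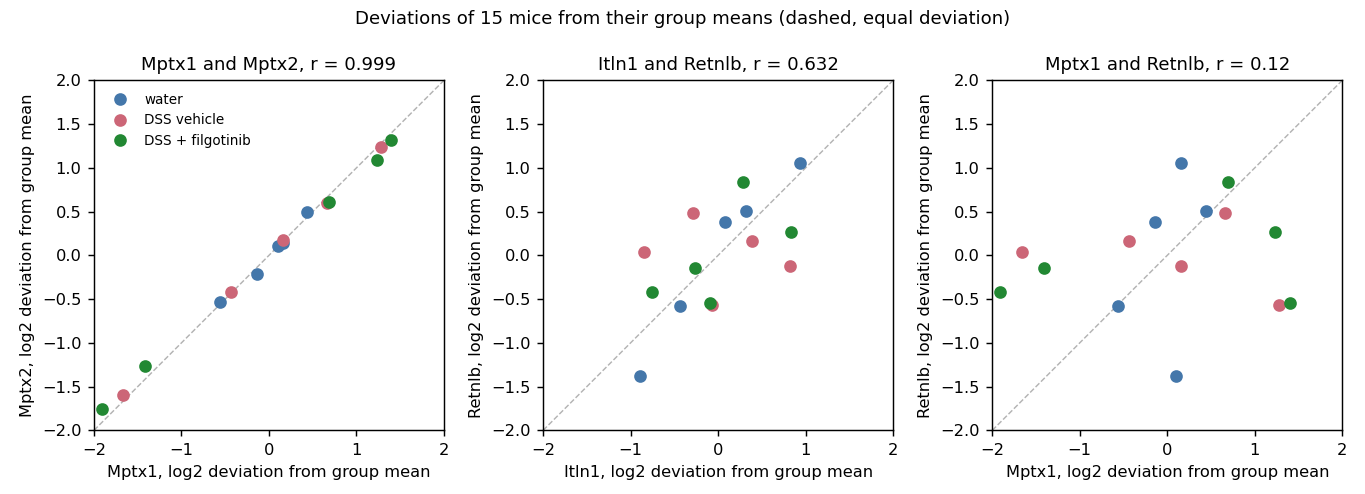
Deviations of the 15 mice from their group means in log2 signal for 3 gene pairs, coloured by group, with a dashed line of equal deviation. Mptx1 and Mptx2 lie along the line (r = 0.999), Itln1 and Retnlb scatter around it (r = 0.632), and Mptx1 and Retnlb have no such pattern (r = 0.12). Whether either pentraxin probe also binds the other gene's transcript was not tested.

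The genes whose within-group deviations were most like a member's were taken over 16229 genes with an established symbol, 5 per member, with n = 15 arrays and no test. For Mptx1 they were Psmb8, an immunoproteasome subunit (r = 0.877, rho = 0.811), A630001O12Rik (r = 0.85), Tap1, a peptide transporter of antigen presentation (r = 0.843, rho = 0.864), the growth factor gene Fgf3 (r = 0.814) and Ido1, which degrades tryptophan (r = 0.811, rho = 0.825). For Mptx2 the first 4 were the same and the fifth was Il18bp, a soluble inhibitor of interleukin 18 (r = 0.796, rho = 0.875). Over undeviated values of all 15 arrays the correlation with Mptx1 was 0.792 for Tap1 and 0.261 for Ido1, whose own log2 difference was 3.42 between DSS vehicle and water and -0.34 between filgotinib and DSS vehicle. For Itln1 the genes were Suco (r = 0.938), Snrpn (r = 0.936), Frk (r = 0.927), Fam20b (r = 0.92) and the nonclassical MHC gene H2-T23 (r = 0.912), and for Retnlb they were Tuft1 (r = 0.925), Sprr2k (r = 0.901), Litaf (r = 0.9), Rnf19b (r = 0.897) and Sprr2j-ps (r = 0.878). For Suco the correlation with Itln1 over undeviated values was 0.00647, so it did not share the differences between groups.

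The relatives of the members gave little signal in this tissue. Among other pentraxins, Apcs (serum amyloid P), Ptx3 and Nptx1 were above background on no array, and Crp (C-reactive protein) on 1 water array. Ptx4 differed by 0.24 ± 0.13 log2 (SE) between DSS vehicle and water (adjusted p = 0.212, limma) and by -0.27 ± 0.13 between filgotinib and DSS vehicle (adjusted p = 0.19, limma). Nptx2 differed by 0.12 ± 0.36 and 0.25 ± 0.36 log2 (adjusted p = 0.847 and 0.698, limma), and no probe was named Nptxr. Of the resistin-like genes, Retnlg was above background on no array, Retnla on 1 filgotinib array, and Retn on 2 DSS vehicle and 2 filgotinib arrays, so none was tested. No probe was named Itln2.

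Goblet cell genes other than Itln1 and Retnlb are given for context, with no test against the members. Of 20 such genes, each by its brightest probe, 9 rose and 0 fell under DSS (median log2 difference 0.26, against 0.05 over all 22133 genes tested, of which 10.2% were higher and 8.13% lower). In filgotinib against DSS vehicle 0 were higher and 2 lower (median -0.11, against 0.00 over all genes, of which 6.17% were higher and 4.27% lower). Sct rose 3.50-fold with DSS (adjusted p = 2.31e-05, limma) and was 3.39-fold lower with filgotinib (adjusted p = 0.000101, limma). This gene encodes the hormone secretin, and which cells gave its signal was not tested. Spink4, a goblet cell peptide, rose 1.60-fold with DSS (adjusted p = 0.00412, limma) and differed by -0.27 ± 0.13 log2 (SE) with filgotinib (adjusted p = 0.198, limma). Capn9, a calpain protease, fell 1.35-fold with filgotinib (adjusted p = 0.0391, limma), a call lost when any of filgotinib mice 1, 2, 3 and 5, DSS vehicle mice 1, 2, 4 and 5 and water mouse 4 was left out (adjusted p up to 0.0999), and with arrays scaled to the median (adjusted p = 0.155), no filter on dim probes (0.0902), a replicate block (0.0612) or only these 2 groups (0.0955). The count of 9 was 4 with quantile normalization, 2 with arrays scaled to the median and 0 with the slide as a block. The summed level of the 20 genes, relative to the 75th percentile, was 2780 to 3340 in water, 3470 to 4090 in DSS vehicle and 3220 to 4100 in filgotinib mice.

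**Figure D4:**
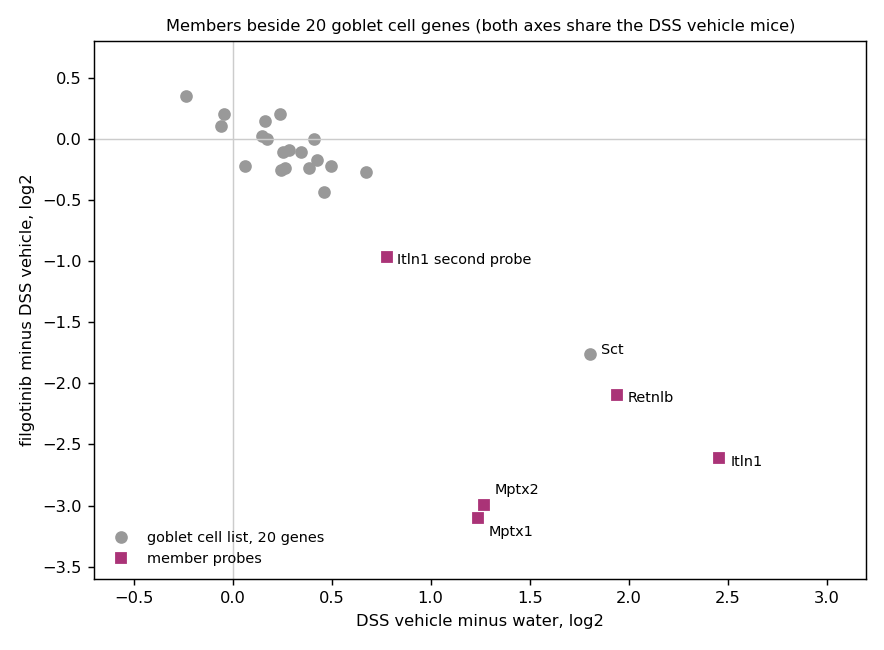
Log2 difference between filgotinib and DSS vehicle mice against that between DSS vehicle and water mice, for the 5 member probes (squares) and 20 goblet cell genes (circles). Both axes use the DSS vehicle mice, so a slope between them is no result. The members were chosen with these values known. Of the genes listed as goblet cell genes, Sct, which encodes the hormone secretin, lies at 1.81 and -1.76.

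Paneth cell and deep crypt secretory cell genes, the group in which Mptx2 is known, were called in both directions with DSS. Among all genes tested, 10.2% were higher and 8.13% lower with DSS, and 6.17% and 4.27% with filgotinib. Of 20 listed genes 16 had a probe and 9 were tested, of which 2 were higher and 2 lower with DSS (median -0.01) and 1 was higher and 0 lower with filgotinib (median 0.17). With the slide as a block 0 were called in either comparison. Pla2g2a, a secreted antibacterial phospholipase, rose 6.67-fold with DSS (adjusted p = 0.000761, limma), and the stress gene Nupr1 rose 1.69-fold (adjusted p = 0.00994, limma). In filgotinib against DSS vehicle Pla2g2a differed by -0.18 ± 0.40 log2 (SE; adjusted p = 0.807, limma), beside -3.10 for Mptx1 and -2.99 for Mptx2. Cd24a, a surface glycoprotein of crypt base cells, fell by 0.66 log2 with DSS (adjusted p = 0.00233, limma) and rose by 0.57 with filgotinib (adjusted p = 0.00953, limma).

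Genes of type 2 immunity and the interleukin 13 response, to which Relm-beta is known to respond, were measured for 13 of 24 listed. The cytokine genes Il4, Il5 and Il9 were above background on no array, and Il13 on 1 water and 1 DSS vehicle array. Among all genes tested, 10.2% were higher and 8.13% lower with DSS, and 6.17% and 4.27% with filgotinib. With DSS 6 of the 13 were higher and 2 lower (median 0.33), and with filgotinib 1 was higher and 3 were lower (median -0.09). With the slide as a block these counts were 2 and 1, and 0 and 1. In the reported fit the 2 lower with DSS were Il33 (12.4-fold, adjusted p = 0.000201, limma) and Il17rb (1.82-fold, adjusted p = 0.0306, limma). Il33 was the gene higher with filgotinib (2.9-fold, adjusted p = 0.0388, limma), a call also lost with a replicate block. With a replicate block or normexp background correction the count lower with DSS was 1. Il1rl1, the interleukin 33 receptor, was at least 21.6-fold higher with DSS, being above background on 0 water arrays (adjusted p = 0.000344, limma), and lower with filgotinib (adjusted p = 0.0142, limma, and 0.056 when only these 2 groups were fitted). Only 2 of 5 filgotinib arrays measured it above background, and that log2 difference, -3.62, ranged from -4.30 to -1.84 over the settings. The mucosal mast cell protease Mcpt1 rose 22.9-fold with DSS (adjusted p = 1.16e-05, limma) and fell 4.11-fold with filgotinib (adjusted p = 0.00575, limma), with log2 differences of 2.84 to 4.76 and -2.37 to -1.45 over the settings. Mcpt2, another such protease, was at least 3.56-fold higher with DSS (adjusted p = 8.84e-06, limma) and at least 1.97-fold lower with filgotinib (adjusted p = 0.000242, limma). Not all mast cell markers moved this way. The mast cell protease gene Cma1 fell 1.89-fold with DSS (adjusted p = 0.0303, limma) and rose 3.16-fold with filgotinib (adjusted p = 0.00327, limma). Both Cma1 calls were lost with the slide as a block. Tpsb2 and Kit were called in neither comparison.

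Genes of the interleukin 22 and STAT3 response, a JAK-dependent epithelial defence programme, were measured for 19 of 22 listed. Among all genes tested, 10.2% were higher and 8.13% lower with DSS, and 6.17% and 4.27% with filgotinib. With DSS 9 of the 19 were higher and 1 lower (median 0.53), and with filgotinib 0 were higher and 8 lower (median -0.88). With the slide as a block these counts were 0 and 0, and 0 and 1. Saa3, a serum amyloid A gene, rose 15.6-fold with DSS (adjusted p = 0.000436, limma) and fell 10.7-fold with filgotinib (adjusted p = 0.00286, limma), with log2 differences of 2.20 to 4.42 and -3.87 to -2.66 over the settings. S100a9, a calprotectin subunit that neutrophils also carry, rose with DSS (adjusted p = 0.00633, limma), with a log2 difference of 3.85, or 1.46 to 4.40 over the settings. It was above background on 3 of 5 water and 2 of 5 filgotinib arrays. Its fall with filgotinib (log2 difference -3.12, or -3.66 to -1.67 over the settings; adjusted p = 0.0294, limma) was not called without DSS vehicle mouse 1 or 5 or filgotinib mouse 1 (adjusted p up to 0.063), nor with the scan day as a block (0.0654), a replicate block (0.0664), no filter on dim probes (0.0626) or only these 2 groups (0.0856). Among the genes named from these lists by size of change, the slide as a block kept the calls of Mcpt1 and Mcpt2 with DSS. With filgotinib it kept those of Sct, Capn9, Mcpt2 and Saa3, and the others were lost.

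Markers of other cells that the scraped mucosa could hold are given by list, and their part in the members' differences was not tested. Among all genes tested, 10.2% were higher and 8.13% lower with DSS, and 6.17% and 4.27% with filgotinib. A summed level weights the brightest probes of its list most. Of 6 smooth muscle markers 0 were called, with a median log2 difference of 1.24 with DSS and -0.18 with filgotinib, and their summed level was 22.8 to 30.9 in water, 28.7 to 97.1 in DSS vehicle and 25.4 to 46.3 in filgotinib mice. That median was -0.47 for DSS vehicle against water on slide 2 and -1.79 for filgotinib against DSS vehicle on slide 3, where the macrophage medians were -0.05 and -0.76. Of 8 macrophage markers 0 were called (medians 0.73 and -0.39; summed level 2.65 to 5.25, 4.08 to 11.8 and 2.47 to 8.96 in the 3 groups). Of 6 tested neutrophil markers 2 were higher with DSS and 1 was lower with filgotinib (medians 0.38 and -0.21; summed level 160.0 to 186, 194 to 212 and 172 to 184), while Cxcr2 and Ngp were above background on no array. Their calls were 0 and 0 with the slide as a block, and 1 and 0 with the scan day as a block. The neutrophil sum was mostly the signal of Csf3r, with a mean log2 of 7.28 in water mice against -4.81 for S100a9. It therefore shows little of the dimmer markers. Of 7 tested mast cell markers 3 were higher and 1 lower with DSS, and 1 was higher and 3 were lower with filgotinib (medians 0.48 and -0.65; summed level 3.48 to 4.40, 4.93 to 5.54 and 4.69 to 6.24), and with the slide as a block 3 were higher with DSS and 1 was lower with filgotinib. Of 12 colon epithelium markers 3 were higher and 0 lower with DSS and 0 were called with filgotinib (medians 0.08 and -0.00), with summed levels of 1200 to 1460, 1370 to 1540 and 1310 to 1490. The 3 calls were 0 with arrays scaled to the median or the slide as a block, and 1 with the scan day or a replicate block. Of 6 tested small intestine markers 1 was lower with DSS (medians -0.17 and -0.05; summed level 3.79 to 5.53, 2.87 to 4.11 and 3.67 to 4.51), and the summed level of the Paneth and deep crypt list was 81.3 to 94.8, 86.2 to 116 and 92.7 to 149.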

How the data were processed

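Expression was measured on 15 one-colour Agilent arrays. Per the file headers, the authors' scanner files hold the processed signal intensity of each spot, background-subtracted and detrended by Agilent Feature Extraction 11.5.1.1, and arrays were not adjusted to each other. The deposited table holds log2 values of 32349 probes, made with a normalization and a filter not given in the sources used here. Across probes, each column and log2 of the same array had r = 0.9988 to 0.9997, and column medians were 8.841 to 8.859, so the scale was log2 with no centring by gene. It served as an alternative. The submitters' processing notes also name limma.

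Control spots and outlier-marked spots were left out (101 probes lost), spots of a probe were averaged, and log2 intensity minus each array's 75th percentile was the value used. Probes well above background on at least 5 of 15 arrays were tested, 33466 in all. Where 1 probe per gene was needed the brightest stood for it, which gave 22133 genes. Of the 56605 probes, 33903 took their name by accession from RefSeq's GRCm38.p6 gene table, 9458 by a file name that is a symbol there, and 13244 kept the file's name.

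Groups were compared in 1 fit over all arrays with limma 3.58.1 (lmFit, eBayes, two-sided, Benjamini-Hochberg over all probes) in R 4.3.3, and called at an adjusted p under 0.05. "Rose", "fell" and "called" refer to this rule. A gene well above background on none of the 5 arrays of a group has only a bound there, given as "at least N-fold". The bright group's mean log2 value is set against the dim group's mean, in which each array counts with the probe's value or with the dimmest reading well above background on that array, whichever is higher. Exact permutation tests were two-sided. The code was tested on simulated data. Python 3.11.15, numpy 2.4.6, pandas 2.3.3, scipy 1.17.1, Biopython 1.88 and matplotlib 3.10.9 were used for tables, alignments and figures.

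The members, gene lists, tests and alternatives were chosen with earlier results of these data known. From each list described, the genes named are up to 2 called genes with the largest change in filgotinib against DSS vehicle and up to 2 in DSS vehicle against water, while marker lists of other cells are given by counts, and all members of the pentraxin, resistin-like and intelectin families are named. Il33 and Il17rb are named as well, being the type 2 genes called lower with DSS. Cma1, Tpsb2 and Kit are named as mast cell markers that did not move as Mcpt1 and Mcpt2 did. Alternatives were quantile normalization, scaling to the median, normexp background correction (offset 50), the deposited log2 table, no filter or a stricter filter on dim probes, outlier marks kept, the brightest probe per gene, slide and scan day as blocks, a replicate block, only the 2 groups compared, eBayes with trend, and leaving out each mouse.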

Additional observations from a re-analysis of the deposited data

How the results depend on the processing

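Of the 5 member probes, 3 were called for DSS vehicle against water (comparison 1), 5 for filgotinib against DSS vehicle (comparison 2) and 0 for filgotinib-treated DSS mice against water (comparison 3), in each setting that gave a count other than the slide as a fixed block, where the first 2 counts were 0 and 0. That fit rests on the few mice sharing a slide. Over all probes it called 89, 606 and 2, against 5856, 3298 and 2883 in the reported fit. With each of the 15 mice left out in turn the counts stayed at 3, 5 and 0. The log2 differences then lay, for DSS vehicle against water, from 0.92 to 1.65 for Mptx1, 0.96 to 1.66 for Mptx2, 2.23 to 2.69 and 0.64 to 0.92 for the Itln1 probes and 1.60 to 2.20 for Retnlb. For filgotinib against DSS vehicle they were -3.52 to -2.62, -3.39 to -2.55, -2.83 to -2.41, -1.11 to -0.83 and -2.30 to -1.96, and for filgotinib with DSS against water -2.21 to -1.38, -2.06 to -1.29, -0.38 to 0.08, -0.33 to -0.08 and -0.50 to 0.11. With normexp the second Itln1 probe differed by -0.41 between filgotinib and DSS vehicle, and the cause was not tested. The stricter filter and the brightest probe per gene left that probe out and gave no count. Same-numbered mice of different groups deviated with correlations of -0.471 to 0.497. Differently numbered mice were not compared, so whether the numbers pair them is not settled. A replicate block kept the counts at 3, 5 and 0, and called 4706, 2135 and 1337 of all probes. Counts over all probes also differed by over 1.5 times with arrays scaled to the median (3730 and 829 in comparisons 1 and 3), quantile normalization (1860 in comparison 3), the deposited table (1886 in comparison 3), normexp (6574 in comparison 3), no filter (1587 and 13830 in comparisons 2 and 3) and only the 2 groups compared (1553 and 1567 in comparisons 2 and 3). With 1 mouse left out they moved as far without water mouse 4 (3861) in comparison 1, without DSS vehicle mouse 1 (1678) or 5 (2024) or filgotinib mouse 2 (1904) or 5 (1867) in comparison 2, and without water mouse 2 (1243), 4 (1206) or 5 (1109) or filgotinib mouse 4 (1537) or 5 (1092) in comparison 3. The share of higher calls was 49.8%, 56.6% and 52.9%, and 32.9%, 72.6% and 39.9% with arrays scaled to the median and 64.9%, 62.7% and 81.1% with normexp; in comparison 3 it was 40.5% with quantile normalization, 40.8% in the deposited table, 84.4% with no filter and 65.2% with 1 probe per gene. The member with the least signal over background was the second Itln1 probe, so its small differences are the least secure.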
